A study of Mus musculus with 16 samples.

Results

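Metallothioneins and zinc transporters were followed in the liver of mice with and without the nuclear receptor PPARα, fed the synthetic PPARα agonist Wy14643 or control food. The 10 genes were the metallothioneins Mt1 and Mt2, the zinc-sensing transcription factor Mtf1, the importers Slc39a1, Slc39a4, Slc39a5 and Slc39a14, and the exporters Slc30a1, Slc30a5 and Slc30a10. They were taken by name from 18193 genes with a probe set, and 20 of 45037 probe sets were annotated to them alone. The genes were chosen by their values in these arrays, with the differences of wild-type livers on Wy14643 from the other groups known, so the wild-type response, the comparison of genotypes on Wy14643 and the difference of both responses are given as a description, with no test. RNA from 16 male mice aged 12 to 20 weeks was hybridized to Affymetrix whole-genome mouse arrays, 1 array per mouse. The 4 groups, each of 4 mice, were PPARα-null mice (129S4/SvJae) given 0.1% (w/w) Wy14643 in the food during 5 days, wild-type mice (129S1/SvImJ) on the same food, PPARα-null mice on control food, and wild-type mice on control food. The genotypes were of different 129 substrains, so an effect of the null allele and one of the substrain cannot be told apart. This holds for a direct comparison of genotypes and for the difference of their responses to Wy14643.

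Zinc in the hepatocyte is bound by metallothioneins, small cysteine-rich proteins, and moved by 2 families of membrane transporters. SLC39A (ZIP) proteins bring zinc into the cytosol, and SLC30A (ZnT) proteins take it out of the cytosol, across the plasma membrane or into vesicles and the secretory pathway. When cytosolic zinc is high, MTF1 binds metal response elements in promoters such as those of the metallothionein genes, which glucocorticoids and interleukin 6 are also known to induce in liver. PPARα binds as a heterodimer with RXR to direct repeats of a hexamer separated by 1 base.

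The promoter sequences of the genes with the largest wild-type differences are shown first, from the RefSeq windows of build GRCm38.p6, which reach from 250 bases before to 50 bases after an annotated start. Such windows were given for 8 of the 10 genes (9 windows), and Slc39a4 and Slc39a14 had no entry. Mt2 and Mt1 are neighbours on chromosome 8 and on the same strand. The 250 bases before each start are printed on the gene's strand, for Mt2 at chr8:94172368-94172617 (plus strand), for Mt1 at chr8:94178839-94179088 (plus strand) and for the more upstream of both annotated starts of Slc39a5 at chr10:128401225-128401474 (minus strand). The first 30 bases after the annotated start follow for Mt2 (chr8:94172618-94172647) and Mt1 (chr8:94179089-94179118). Whether transcription begins at these annotated starts in these livers was not tested, so these bases may still belong to the promoter. Capitals in the metallothionein sequences mark matches to the metal response element core, searched as TGCACNC and TGCGCNC on both strands, so that a match on the other strand reads GNGTGCA or GNGCGCA. Capitals in the Slc39a5 sequence mark a match to a loose form of the PPAR direct repeat, and its single match to the metal response element core was left in lower case.
Mt2 before the start: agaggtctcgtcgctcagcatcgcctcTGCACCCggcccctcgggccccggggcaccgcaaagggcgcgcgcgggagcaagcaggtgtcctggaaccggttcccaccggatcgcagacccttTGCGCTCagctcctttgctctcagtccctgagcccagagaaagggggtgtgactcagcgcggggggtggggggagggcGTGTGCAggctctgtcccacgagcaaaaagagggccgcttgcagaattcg
Mt2 first 30 bases: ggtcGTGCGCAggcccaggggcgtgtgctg
Mt1 before the start: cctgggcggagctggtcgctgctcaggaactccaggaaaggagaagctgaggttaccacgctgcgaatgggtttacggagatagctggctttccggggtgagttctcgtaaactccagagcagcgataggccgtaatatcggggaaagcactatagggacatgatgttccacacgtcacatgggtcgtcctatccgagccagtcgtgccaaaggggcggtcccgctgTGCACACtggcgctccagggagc
Mt1 first 30 bases: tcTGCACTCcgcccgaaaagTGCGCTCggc
Slc39a5 before the start: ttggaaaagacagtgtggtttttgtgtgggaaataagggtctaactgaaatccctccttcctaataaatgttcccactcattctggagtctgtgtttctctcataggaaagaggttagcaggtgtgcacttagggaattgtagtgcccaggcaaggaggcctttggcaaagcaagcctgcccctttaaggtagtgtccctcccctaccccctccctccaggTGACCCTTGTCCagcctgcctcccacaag

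The Mt2 window held 4 matches to the metal response element core, 3 before and 1 after the annotated start. The Mt1 window held 3, of which 1 lay before and 2 after the annotated start. Matches outside these windows were not searched. Slc30a10 had 3 matches, a pair of which overlapped on opposite strands, Slc30a1 had 2, Slc30a5 had 1, and the windows of Slc39a1 and Mtf1 had 0. Of 32851 promoter windows of the same length, 25.7% held at least 1 match, 7.11% at least 2 and 0.518% at least 4. The direct repeat of AGGTCA with any 1 base between both copies was in 0 of the windows of these genes and in 0.0396% of all windows. The loose form, a direct repeat of GGNCA with any 2 bases between, chosen after the sequence was seen, occurred once, in the printed Slc39a5 window, and in 2.08% of all windows. A match is a stretch of letters in a window and not a measured binding site.

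Values below are log2 intensities, means are given with the SD (n = 4), and differences with the SE of the limma fit. Each gene is taken at its brightest probe set over the 16 arrays, and is called in a comparison at an adjusted p under 0.01 and a fold over 1.5. In the comparisons known when the genes were chosen, a call only labels a value by these limits and is not a test of it. The median over all probe sets lay between 2.15 and 2.24 on the 16 arrays, and values at or below 2.24 are treated here as having no measured order. Levels of different probe sets are not comparable with each other. Arrays of 1 group correlated with r between 0.975 and 0.991 over the 12877 probe sets with a mean log2 above 4.

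Several properties of the arrays bear on the results. Ppara averaged 9.63 ± 0.30 on Wy14643 in PPARα-null livers and 10.78 ± 0.06 in wild-type livers, and 9.29 ± 0.39 and 9.92 ± 0.13 on control food. Its probe set thus still gave signal in the PPARα-null livers, the position of the probe set relative to the deleted stretch is not known here, and the labels are only weakly checked by it. The third wild-type array on Wy14643 carried transcripts of pancreatic acinar cells. There, 6 of the 8 acinar markers measured (Cpa1, Cpb1, Cela2a, Ctrb1, Prss2 and Cel) had values between 7.56 and 8.67, against at most 3.20 on the other 15 arrays. Its summed intensity over the 8 markers was 2092, against 116 to 138 on the other 3 wild-type arrays on Wy14643 and 605 to 872 in the other groups. Cela1 had signal on all arrays. It was at 8.53 on the third wild-type array on Wy14643 and at 6.49 to 6.82 on the other 3. In the other groups Cela1 averaged 9.33 to 9.47, so it did not mark this array alone. Ptf1a was near the array median on the third array. Results are therefore also given without this array. Kupffer cell markers were lower in wild-type livers on Wy14643, where their summed intensity was 619 to 765, against 1118 to 1304 in wild-type livers on control food, and 8 of the 10 were called lower. Other lists had lower sums there too, with 1353 to 1565 against 2009 to 2180 for stellate cells (3 of 10 called lower), 1121 to 1350 against 1535 to 1731 for sinusoidal endothelial cells (3 of 10 called lower and 1 higher) and 59313 to 62700 against 70350 to 71739 for hepatocytes (1 of 8 called lower). Without the array with acinar transcripts, 7 Kupffer cell, 4 stellate cell and 1 hepatocyte markers were called lower. Of the sinusoidal endothelial markers 1 was then called lower and 1 higher. Over all genes 6.74% were called lower and 7.72% higher in the wild-type response with all arrays. Fewer cells of a type and less RNA per cell cannot be told apart in whole liver. The part of other cell types in the results below was not tested except where a value is given.

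In the livers of wild-type mice on Wy14643, Mt1, Mt2 and Slc39a5 were far higher, and Slc39a14, Slc39a4, Slc30a1 and Slc30a10 lower, than in wild-type mice on control food. Slc39a1, a widely expressed importer, and Mtf1 were called in no comparison by their main probe sets. Of the 10 genes, 6 were called between PPARα-null and wild-type livers on Wy14643, 3 higher and 3 lower in the PPARα-null livers (of all 18193 genes 15.3% were called, 7.13% higher and 8.12% lower). In the wild-type response 7 were called, 3 higher and 4 lower on Wy14643 (14.5% of all genes, 7.72% higher and 6.74% lower). The difference of both responses was called for 6, 3 higher and 3 lower (10% of all genes, 4.62% higher and 5.38% lower). These comparisons were known when the genes were chosen, so nothing is read from these counts. In the 2 comparisons given with a test, 0 of the 10 genes were called in the response of PPARα-null livers and 0 between genotypes on control food.

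**Figure D1:**
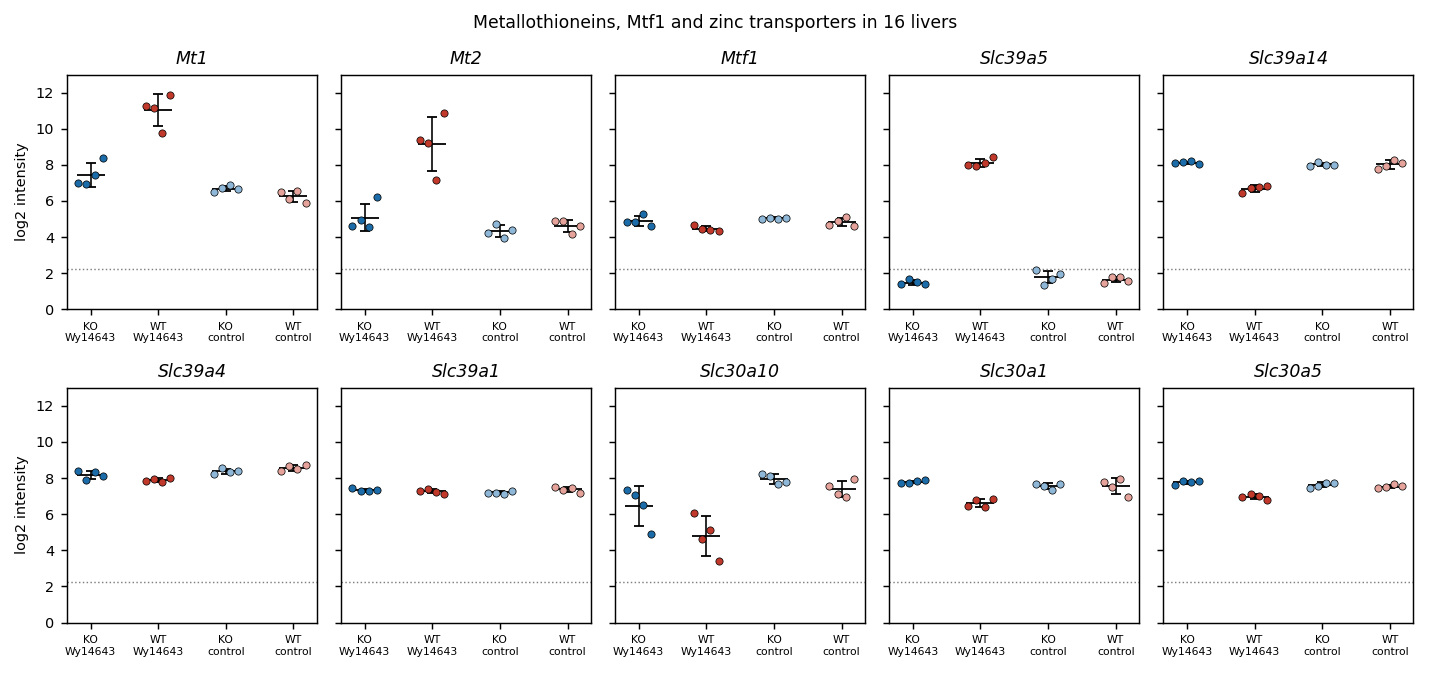
Log2 intensity of each of the 10 genes (1 panel per gene, main probe set) on the 16 arrays; each point is 1 mouse, the line and bars are the mean and SD of 4 mice, and the dotted line is the highest array median, 2.24. In wild-type livers on Wy14643, Slc39a5 lay between 7.94 and 8.43, while all 12 other livers lay below the dotted line.

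Mt1 (probe set 1422557_s_at) encodes 1 of the 2 metallothioneins that are abundant in liver. On Wy14643, Mt1 was at 7.0, 6.95, 7.42 and 8.37 in the 4 PPARα-null livers and at 11.25, 11.16, 9.77 and 11.87 in the 4 wild-type livers. On control food it was at 6.51, 6.71, 6.86 and 6.63 in PPARα-null livers and at 6.5, 6.09, 6.53 and 5.91 in wild-type livers. All 4 wild-type livers on Wy14643 lay above the 12 others, and the array with the acinar transcripts was the lowest of the 4. The difference between PPARα-null and wild-type livers on Wy14643 was -3.57 ± 0.35, an 11.9-fold lower level, and the wild-type response was 4.76 ± 0.35, a 27.0-fold higher level on Wy14643. Without the array with acinar transcripts these differences were -3.99 and 5.17. The suffix of the probe set marks probes that can match more than 1 transcript, and whether Mt2 transcripts contribute to its signal was not tested. A further probe set, 1451612_at, stayed between 1.73 and 2.63 on all arrays, at or near the array median, and was called in no comparison.

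Mt2 (1428942_at), the neighbouring metallothionein gene, moved in the same direction. On Wy14643 it was at 4.62, 4.93, 4.57 and 6.20 in PPARα-null livers, against 9.36, 9.19, 7.17 and 10.86 in wild-type livers. Its control-food values were 4.23, 4.72, 3.95 and 4.37 in PPARα-null livers, against 4.87, 4.87, 4.16 and 4.63 in wild-type livers. The groups on Wy14643 did not overlap, and as for Mt1, the fourth liver was highest in either genotype and the third wild-type liver was lowest among the wild-type livers. The spread among wild-type livers on Wy14643, an SD of 1.51, was the largest among the main probe sets of the 10 genes. The difference between PPARα-null and wild-type livers on Wy14643 was -4.06 ± 0.53 (16.7-fold lower), and the wild-type response was 4.51 ± 0.53 (22.8-fold higher). Without the array with acinar transcripts they were -4.72 and 5.17. In fold, the wild-type response was 22.8-fold with that array and 36.0-fold without it, and the difference between genotypes 16.7-fold with it and 26.4-fold without it.

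Mtf1, the factor through which zinc acts on both genes, had 5 probe sets. By its main probe set (1418333_at) it ranged from 4.61 to 5.28 in PPARα-null and from 4.35 to 4.64 in wild-type livers on Wy14643, and from 4.99 to 5.08 in PPARα-null and from 4.59 to 5.10 in wild-type livers on control food. The groups on Wy14643 overlapped slightly, and the differences, 0.43 ± 0.13 between genotypes on Wy14643 and -0.36 ± 0.13 for the wild-type response, were not called. Of its 4 further probe sets 1428979_at was called lower in the wild-type response (-0.64 ± 0.16), and the other 3 were called nowhere, with 1440414_at and 1452990_at averaging below the array median. The wild-type livers on Wy14643, highest in Mt1 and Mt2, were thus not the highest in Mtf1 by its main probe set.

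Among the importers, Slc39a5 (1429523_a_at) had the largest difference. The encoded ZIP5 is known from the basolateral membrane of enterocytes and of pancreatic acinar cells. On Wy14643 it was at 1.37, 1.66, 1.49 and 1.40 in PPARα-null livers and at 8.0, 7.94, 8.12 and 8.43 in wild-type livers. On control food it was at 2.16, 1.37, 1.65 and 1.93 in PPARα-null livers and at 1.46, 1.78, 1.77 and 1.57 in wild-type livers. It was therefore above the array medians in the 4 wild-type livers on Wy14643 and in no other liver. Because 3 groups lay below the highest array median, only bounds are given: relative to that median, Slc39a5 was at least 59.0-fold lower in PPARα-null than in wild-type livers on Wy14643, and at least 59.0-fold higher on Wy14643 than on control food in wild-type livers. The measured means were 1.48 ± 0.13 in PPARα-null livers on Wy14643, 8.12 ± 0.22 in wild-type livers on Wy14643, 1.78 ± 0.34 in PPARα-null livers on control food and 1.64 ± 0.16 in wild-type livers on control food.

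Since Slc39a5 is known from pancreas, its values were set beside the acinar markers. In the array that carried acinar transcripts Slc39a5 was at 8.12, within the range of 7.94 to 8.43 of the other 3 wild-type livers on Wy14643. In those 3 livers the 6 acinar markers were at most 2.47. Of the markers of enterocytes, the other cells named above for ZIP5, Lct, Alpi, Cdx1 and Cdx2 were at most at 2.48 on all 16 arrays. Whether hepatocytes or other cells gave the Slc39a5 signal was not tested. Vil1 was at 1.27 to 1.97 in wild-type livers on Wy14643 and at 1.49 to 2.12 in wild-type livers on control food. In PPARα-null livers it was higher, at 2.46 to 4.25 on Wy14643 and 2.38 to 3.51 on control food. Of the 9 enterocyte markers measured, Fabp2, Mttp and Anpep were called higher and Apoa4 lower in the wild-type response. Without the array with acinar transcripts, 2 were called higher and 1 lower. The list sum was 4877 to 5213 in wild-type livers on Wy14643, against 5900 to 6667 in wild-type livers on control food.

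**Figure D2:**
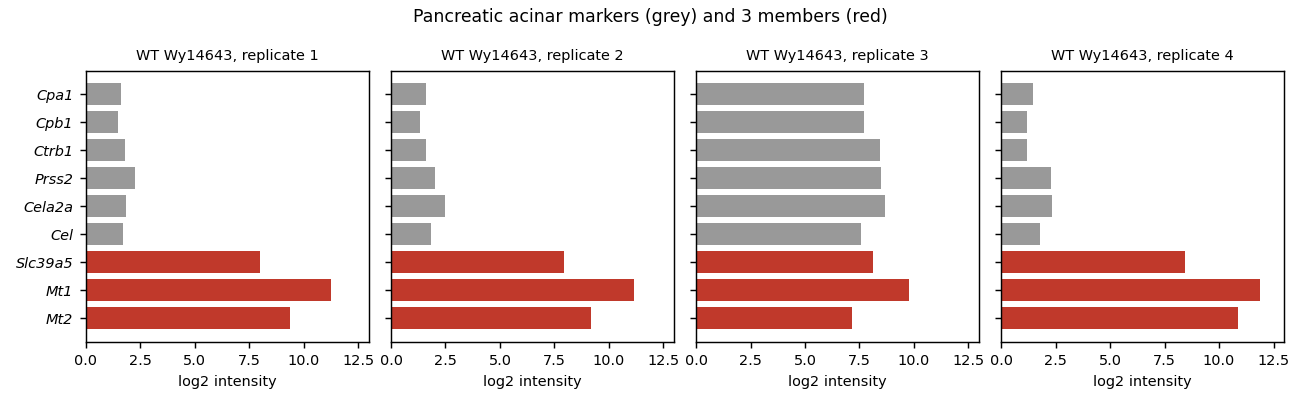
Log2 intensity of 6 pancreatic acinar markers (grey) and of Slc39a5, Mt1 and Mt2 (red) on the 4 wild-type arrays on Wy14643; each bar is 1 probe set on 1 array, and bars are to be compared for 1 gene between panels. The acinar markers stand between 7.56 and 8.67 in replicate 3 and at most at 2.47 in the others, while Slc39a5 is between 7.94 and 8.43 in all 4.

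Slc39a14 moved the other way. It encodes ZIP14, a hepatic importer of zinc that also carries iron and manganese and is known to be induced by interleukin 6 in the acute phase. On Wy14643, Slc39a14 (1427035_at) was at 8.09, 8.14, 8.19 and 8.05 in PPARα-null livers and at 6.42, 6.70, 6.74 and 6.84 in wild-type livers. The control-food values were 7.94, 8.16, 7.97 and 8.01 in PPARα-null livers and 7.76, 7.91, 8.29 and 8.13 in wild-type livers. The 4 wild-type livers on Wy14643 were the lowest of all 16. PPARα-null livers were higher by 1.44 ± 0.12 on Wy14643 (2.72-fold), and the wild-type response was -1.35 ± 0.12 (2.54-fold lower on Wy14643). A pair of further probe sets, 1425649_at and 1438490_at, gave wild-type responses of -1.02 ± 0.20 and -1.70 ± 0.24, both called. The fourth, 1457770_at, averaged 2.27 to 2.51 in the groups, near the array median, and was called nowhere.

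Slc39a4 encodes ZIP4, the main importer for dietary zinc in the intestine. On Wy14643, Slc39a4 (1451139_at) was at 8.37, 7.91, 8.34 and 8.14 in PPARα-null livers and at 7.84, 7.96, 7.77 and 8.02 in wild-type livers. On control food it was at 8.24, 8.55, 8.34 and 8.41 in PPARα-null livers and at 8.38, 8.66, 8.49 and 8.73 in wild-type livers. The wild-type groups did not overlap, with a response of -0.67 ± 0.12 (1.59-fold lower on Wy14643), whereas the genotypes overlapped on Wy14643 and their difference of 0.29 ± 0.12 was not called. Slc39a1 (1424424_at) ranged from 7.28 to 7.46 in PPARα-null and from 7.13 to 7.39 in wild-type livers on Wy14643, and from 7.14 to 7.30 in PPARα-null and from 7.17 to 7.50 in wild-type livers on control food. Its wild-type response was -0.11 ± 0.09, with a 95% interval of -0.30 to 0.09.

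Slc30a1 encodes ZnT1, the zinc exporter of the plasma membrane and a known MTF1 target. By its main probe set (1436164_at) it was at 7.73, 7.75, 7.82 and 7.87 in PPARα-null livers and at 6.45, 6.79, 6.41 and 6.82 in wild-type livers on Wy14643. On control food Slc30a1 was at 7.67, 7.57, 7.33 and 7.69 in PPARα-null livers and at 7.78, 7.51, 7.97 and 6.95 in wild-type livers. All wild-type livers on Wy14643 were below the 12 others, the nearest being the fourth wild-type liver on control food. The difference between genotypes was 1.18 ± 0.17 on Wy14643 (2.27-fold higher in PPARα-null livers), and the wild-type response was -0.94 ± 0.17 (1.92-fold lower). The second probe set, 1422786_at, had the opposite sign, with -0.24 ± 0.14 between genotypes and 0.33 ± 0.14 for the wild-type response, neither called. With the mean of both probe sets the differences were 0.47 and -0.30 and no longer called, so the direction for this gene rests on 1 of its 2 probe sets.

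Slc30a5 encodes ZnT5, which carries zinc into the early secretory pathway. On Wy14643, Slc30a5 (1422497_at) was at 7.64, 7.82, 7.77 and 7.84 in PPARα-null livers and at 6.98, 7.11, 7.01 and 6.79 in wild-type livers. On control food it was at 7.45, 7.59, 7.73 and 7.73 in PPARα-null livers and at 7.43, 7.50, 7.67 and 7.54 in wild-type livers. The 4 wild-type livers on Wy14643 again lay below all others. PPARα-null livers were higher by 0.80 ± 0.10 on Wy14643 (1.74-fold), which was called, and the wild-type response of -0.56 ± 0.10 (1.48-fold lower) was just under the fold limit.

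Slc30a10 encodes ZnT10, known foremost as an exporter of manganese. On Wy14643, Slc30a10 (1438751_at) was at 7.36, 7.05, 6.53 and 4.88 in PPARα-null livers and at 6.09, 4.6, 5.11 and 3.39 in wild-type livers. On control food it was at 8.23, 8.11, 7.66 and 7.77 in PPARα-null livers and at 7.55, 7.13, 6.94 and 7.93 in wild-type livers. The SD was 1.11 and 1.12 in the PPARα-null and wild-type livers on Wy14643, against 0.27 and 0.44 in the PPARα-null and wild-type livers on control food. In either genotype the liver lowest in Slc30a10 on Wy14643 was the fourth, the same that was highest in Mt1 and Mt2. The wild-type response was -2.59 ± 0.50 (6.03-fold lower on Wy14643), and -2.22 ± 0.37 by the second probe set, 1439934_at, both called. Between genotypes on Wy14643 the groups overlapped and the difference of 1.66 ± 0.50 was not called, but without the fourth PPARα-null liver it was 2.18, and without the first wild-type liver it was 2.09, and both were called.

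**Figure D3:**
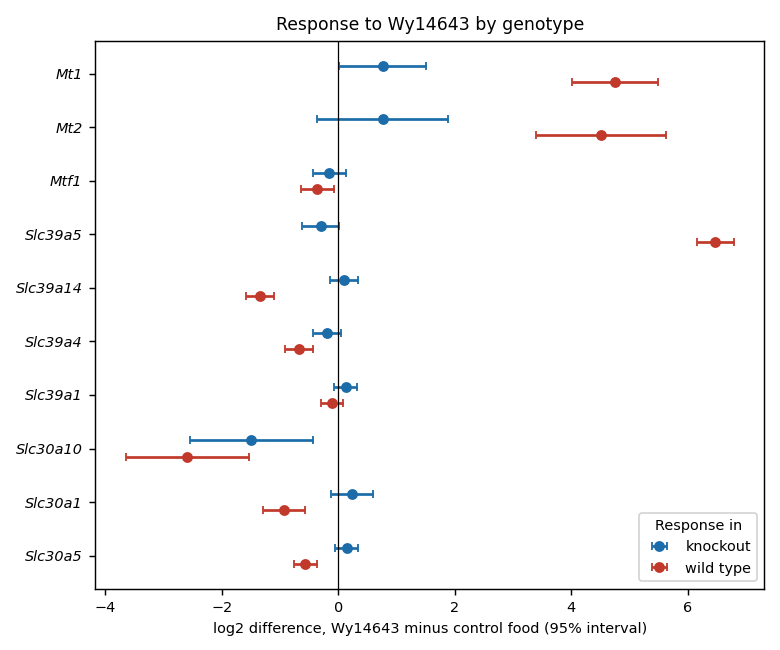
Log2 difference between Wy14643 and control food for each of the 10 genes in PPARα-null (knockout, blue) and wild-type (red) livers; points are the differences of the group means and bars their 95% intervals from the limma fit. In PPARα-null livers the points run from -1.49 for Slc30a10 to 0.76 for Mt1 and Mt2, and in wild-type livers from -2.59 for Slc30a10 to 6.48 for Slc39a5, a fitted value for which only the bound of at least 5.88 holds.

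The response of PPARα-null livers to Wy14643 uses 8 arrays that do not enter the wild-type response. Its arrays on Wy14643 do enter the comparison of genotypes, and the control-food arrays enter the 2 responses, so these tests are not independent of the choice of genes and an uncalled difference supports nothing by itself. By limma with Benjamini-Hochberg adjustment over all 45037 probe sets, 0 of the 10 genes were called, where 0.0275% of all genes were, and 2 (Mt1 and Slc30a10) had an unadjusted p under 0.05, as had 10.3% of all genes. Mt1 was at 6.95 to 8.37 on Wy14643 and at 6.51 to 6.86 on control food in PPARα-null livers. These groups did not overlap, but the difference of 0.76 ± 0.35 had an adjusted p of 0.531, and without the fourth PPARα-null liver on Wy14643 it was 0.45. The difference for Mt2 was also 0.76, with a larger SE of 0.53, and had an adjusted p of 0.713, with overlapping groups, and without that liver it was 0.39. For both genes the intervals were wide, from 0.02 to 1.5 for Mt1 and from -0.36 to 1.88 for Mt2, and their upper bounds lay below the lower bounds of the wild-type response, 4.01 and 3.39.

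Slc30a10 was lower on Wy14643 in all 4 PPARα-null livers, at 4.88 to 7.36, than in any PPARα-null liver on control food, at 7.66 to 8.23. The difference was -1.49 ± 0.50 (2.81-fold) with an unadjusted p of 0.00867 and an adjusted p of 0.339, and by the second probe set it was -1.38 ± 0.37 with an adjusted p of 0.206, again without overlap. Without the fourth liver it was -0.96 with an adjusted p of 0.706. For Slc30a10 the responses of PPARα-null and wild-type livers differed by 1.10 ± 0.71, which was not called, so that a difference between genotypes in its response was not shown by these arrays. Slc30a1 also showed no overlap in PPARα-null livers, with 7.73 to 7.87 on Wy14643 and 7.33 to 7.69 on control food, but its difference was 0.23 ± 0.17 (adjusted p = 0.739).

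The other genes differed by between -0.30 and 0.14 in PPARα-null livers, with adjusted p between 0.578 for Slc39a5 and 0.853 for Slc39a14. For Slc39a14 the 95% interval of the response was -0.15 to 0.34 and for Slc30a5 -0.06 to 0.35. On control food, PPARα-null and wild-type livers differed by between -0.31 for Mt2 and 0.55 for Slc30a10 over the 10 genes. By limma 0 genes were called there, where 0.544% of all genes were (0.143% higher and 0.401% lower). An unadjusted p under 0.05 was found for 0 of the 10, and for 9.6% of all genes. The adjusted p ran from 0.686 for Slc39a1 to 0.999 for Slc39a14. For Slc39a14 this difference was -0.00 ± 0.12, and for Slc30a1 it was 0.01 ± 0.17. Slc39a5 was below the highest array median in both groups of either comparison, so its differences there have no measured order. The median difference of the 10 genes was 0.05, and -0.00 over all genes, while in the PPARα-null response it was 0.11, and 0.01 over all genes.

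The rest of the 2 transporter families and the remaining metallothioneins were read from a list of 19 genes, all of which had a probe set. Between PPARα-null and wild-type livers on Wy14643, 4 of the 19 were called higher and 0 lower (7.13% and 8.12% of all genes). In the wild-type response 3 were called lower and 0 higher (6.74% and 7.72% of all genes). In the PPARα-null response and on control food 0 were called by limma, where 0.0275% and 0.544% of all genes were. An unadjusted p under 0.05 was found there for 3 and 0 of the list, and for 10.3% and 9.6% of all genes. The counts of calls were the same without the array with acinar transcripts. The median difference of the list between PPARα-null and wild-type livers on Wy14643 was 0.15, against 0.04 over all genes. The 2 metallothioneins Mt3 and Mt4, known from brain and from stratified epithelia, had group means of 2.63 to 2.90 and 2.04 to 2.14 and were called nowhere.

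Slc39a8 encodes ZIP8, the closest relative of ZIP14. It lay between 7.39 and 7.80 in PPARα-null and between 6.35 and 6.87 in wild-type livers on Wy14643, and between 7.70 and 8.05 in PPARα-null and between 7.68 and 7.93 in wild-type livers on control food. Its wild-type response was -1.11 ± 0.12, and -1.44 ± 0.18 by its second probe set, both called, and its response in PPARα-null livers was -0.27 ± 0.12 (adjusted p = 0.525). Slc39a14 and Slc39a8 were thus both lower in wild-type livers on Wy14643 without overlap. Slc30a7 encodes ZnT7, an exporter into the Golgi. It was at 7.19 to 7.35 in PPARα-null and at 6.17 to 6.43 in wild-type livers on Wy14643, with a wild-type response of -0.89 ± 0.10, which was called. Its second probe set gave -0.21 ± 0.17 for that response and 0.26 ± 0.17 between genotypes, neither called and both with overlapping groups. Slc39a10 had a wild-type response of -0.93 ± 0.22, called, by its main probe set and of -0.01 ± 0.16, not called, by the other. For Slc30a7 and Slc39a10 the direction thus rests on 1 of 2 probe sets. The lists were chosen with these comparisons known, so their values too are a description.

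The other 2 transporters called between genotypes on Wy14643 were Slc39a2 and Slc30a3, and Slc39a2 was named after its values were seen. It encodes ZIP2, an importer of the plasma membrane. Its level was 5.19 to 5.80 in PPARα-null and 3.32 to 4.39 in wild-type livers on Wy14643, against 4.25 to 4.78 in PPARα-null and 3.88 to 4.49 in wild-type livers on control food. Here the PPARα-null livers on Wy14643 stood apart from the 12 others, unlike any of the 10 genes above. The difference between genotypes on Wy14643 was 1.62 ± 0.21, the response was 0.98 ± 0.21 in PPARα-null livers (adjusted p = 0.100, groups not overlapping) and -0.29 ± 0.21 in wild-type livers, and the responses differed by 1.28 ± 0.30. That last difference was called with all arrays, but not without the array with acinar transcripts, where it was 1.08. Slc30a3 had group means of 2.03 to 2.67, near the array median, and its difference of 0.64 ± 0.15 between genotypes on Wy14643 is given as a value only.

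**Figure D4:**
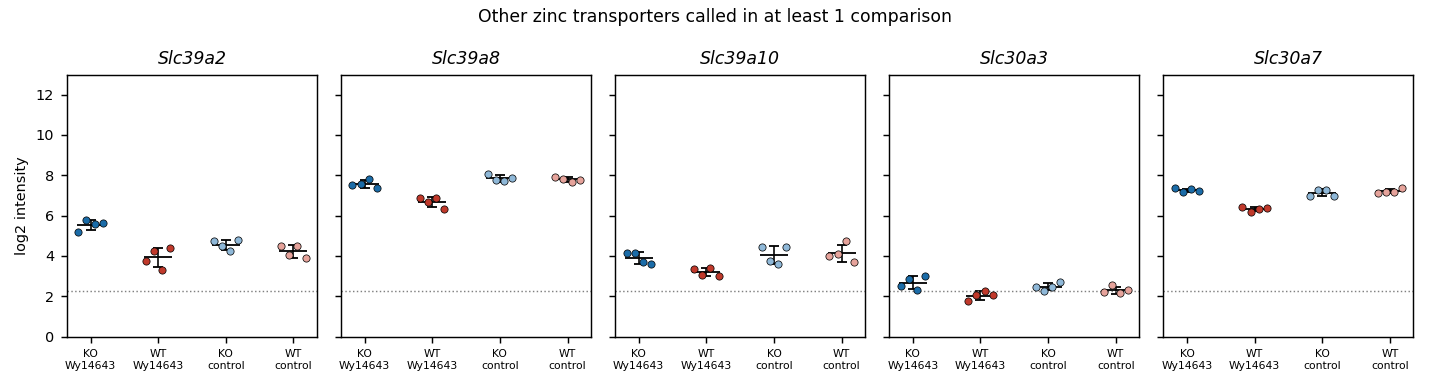
Log2 intensity of the 5 other zinc transporters called in at least 1 comparison, on the 16 arrays; points are mice, the line and bars are the mean and SD of 4 mice, and the dotted line is the highest array median, 2.24. Slc39a8 and Slc30a7 are lowest in wild-type livers on Wy14643, and Slc39a2 is highest in PPARα-null livers on Wy14643, at 5.19 to 5.80.

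The genes with the most similar profile to Mt1, Mt2 and Slc39a5 were sought among 7451 genes with a mean above 4, by the root mean square distance between log2 values centred on each gene's mean over the 16 arrays. The nearest to Mt1 was Mt2, at 0.54, followed by Stmn1 (0.60), Atp10d (0.63), Cdt1 (0.64) and Car2 (0.64). For Mt2 they were Mt1, Atp10d (0.68), Slc25a4 (0.73), Mad2l1 (0.73) and Car2 (0.74). Mt1 itself varied with an SD of 1.94 and Mt2 with an SD of 2.10 over the 16 arrays. Without the array with acinar transcripts, 3 of the 5 nearest genes were shared for either metallothionein, and Cd36 at 0.50 was then the nearest to Mt1, with Mt2 at 0.53. Slc39a5 had Krt23 (0.36), Lamb3 (0.41), Fabp4 (0.48), Rab30 (0.57) and Rcan2 (0.68) nearest to it, and all 5 were shared without that array. Fabp4 is also a marker of adipocytes, of which 3 of the 7 measured (Fabp4, Cidec and Lipe) were called higher in the wild-type response, with a summed intensity of 7280 to 8522 in wild-type livers on Wy14643, against 82.8 to 137 in wild-type livers on control food. Adipoq, Lep and Retn, the adipokines of that list, were at most at 1.93 in wild-type livers on Wy14643. Krt23, the nearest, averaged 3.00 in PPARα-null and 9.20 in wild-type livers on Wy14643, and 2.73 in PPARα-null and 3.23 in wild-type livers on control food. All these genes share the 16 arrays and the contrast of 4 livers with 12, so the distances are a description. Krt23, Lamb3, Rab30 and Rcan2 passed the limit on the mean through wild-type livers on Wy14643 alone. The same holds for Stmn1, Atp10d, Cdt1, Mad2l1 and Car2, named above for Mt1 or Mt2. Of these, Atp10d lay close to the limit, averaging 4.05 in PPARα-null livers on Wy14643. On control food it averaged 3.90 in PPARα-null and 3.99 in wild-type livers. For low genes the limit itself thus favours this profile.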

How the data were processed

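Liver RNA of 16 mice was hybridized to 1-colour arrays, and the values the authors deposited are intensities of probe sets, 1 per array, for which the submitters' processing notes name GCRMA 2.20 (background from probe sequence, quantile normalization, summary of the probes of a set). The intensities were positive, with medians of 4.42 to 4.72 and maxima of 18107 to 22364, from which a linear scale was inferred, and log2 was taken with no offset. Dim values depend on the background step, and 4 arrays per group limit the precision. Labels and paper differ in the RNA amount, the labelling and the number of mice, and the groups follow the labels.

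After removal of 64 control probe sets, 45037 were fitted with limma 3.58.1 in R 4.3.3, 1 mean per group over 16 arrays, with empirical Bayes moderation, two-sided tests and Benjamini-Hochberg adjustment over all of them. A call needed an adjusted p under 0.01 and a fold over 1.5. A single gene was annotated to 34945 probe sets, more than 1 gene to 932, no gene to 9160, and 34741 matched the gene table by identifier. The fit was tested on simulated data. The 10 genes and all lists were chosen with earlier results of these data known. Every one of the 10 was reported, with values per array where called. Of the other lists, up to 4 genes with the largest wild-type response could be named, and the 5 nearest genes for Mt1, Mt2 and Slc39a5. Alternatives covered a filter at mean log2 4, normalization, array weights, moderation, the arrays in the fit, a replicate block, the threshold, the probe sets standing for a gene, and each array left out. Promoter windows came from RefSeq (GRCm38.p6).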

Additional observations from a re-analysis of the deposited data

Results flagged for a closer look

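The interaction term of the limma fit, the difference of both responses, was called for 6 of the 10 genes, where 10% of all genes were. Because that term contains the wild-type response known when the genes were chosen, the count and the values are a description. The response of PPARα-null livers minus that of wild-type livers was -3.99 ± 0.50 for Mt1 and -3.75 ± 0.75 for Mt2, where the wild-type response was positive, and both were -4.41 without the array with acinar transcripts (for Mt2 a 13.4-fold difference with it and 21.2-fold without it). It was 1.44 ± 0.16 for Slc39a14, 1.17 ± 0.24 for Slc30a1 and 0.71 ± 0.14 for Slc30a5, where the wild-type response was negative. For Slc39a5 the fitted value was -6.77, but 3 of its 4 groups lay below the highest array median, so only the bound on the wild-type response, at least 5.88, is supported and the fitted value is no measured size. For Slc30a1 the term was 0.49 with the mean of its 2 probe sets and was then not called. In none of the 4 groups did a single liver stand apart from the other 3 by Dixon's criterion for any of the 10 genes.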

How the results depend on the processing

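The number of the 10 genes called stayed within 5 to 8 between genotypes on Wy14643, within 6 to 8 for the wild-type response and within 5 to 6 for the difference of both responses, and was 0 in the other 2 comparisons under every alternative run. Slc39a5, with a mean below 4, left the fit under the filter on dim probe sets. Leaving out each array in turn gave 6 to 7, 7 to 8 and 6 to 6 calls in the first 3 comparisons.

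Between genotypes on control food, Slc39a14 changed sign to 0.0101 with array median centring and to 0.0261 with the mean of all its probe sets, and Slc30a1 to -0.00373 with quantile normalization, -0.000665 with array weights and -0.0169 with the mean of its probe sets. With arrays left out in turn these differences ran from -0.0879 to 0.0883 for Slc39a14 and from -0.189 to 0.152 for Slc30a1. In the PPARα-null response, Slc39a14 was at -0.0286 with the mean of its probe sets. None of these values was called. Slc30a10 between genotypes on Wy14643 was called with array weights (1.88) and at an adjusted p under 0.05 with no fold minimum (1.66), as was Mtf1 there at 0.43. The difference of responses for Mt2, -3.75, was no longer called with trend and robust moderation. The wild-type response of Slc30a5 was called without the second wild-type liver on Wy14643 (-0.61) or without the first on control food (-0.60). With the mean of both probe sets of Mt1, 1 of which lay near the array median, the wild-type response was 2.46 in place of 4.76. The causes were not tested.

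Deviations from the group mean were correlated between samples of different groups. With the same replicate number r ran from -0.12 to 0.19 (median 0.05), and with different numbers from -0.28 to 0.20 (median -0.02). These ranges overlapped, so the numbers were not taken as pairs. With the replicate number as a block, 6, 7 and 6 genes were called in the first 3 comparisons and 0 in the others, and no call changed.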

Other observations

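Genes of processes known to induce metallothioneins were read from further lists, as a description, since the lists were chosen with these results known. Over all genes 7.72% were called higher and 6.74% lower in the wild-type response. Of 14 genes of interleukin 6 signalling and the acute phase, 10 were called lower and 1 higher in the wild-type response to Wy14643 (median difference -0.83, against -0.03 over all genes), and 0 in the PPARα-null response. Saa1, an acute-phase apolipoprotein, had a wild-type response of -4.27 ± 0.43, Itih4 of -2.42 ± 0.11 and Saa1's relative Saa2 of -2.24 ± 0.39, while Orm2 was at -2.11 ± 0.30. Lcn2, the iron-scavenging lipocalin, was the gene called higher, at 2.04 ± 0.39, and was named after its values were seen. Of 12 glucocorticoid response genes 2 were called higher and 2 lower, with Fkbp5 at 2.17 ± 0.27, Cdkn1a at 2.02 ± 0.36, Tsc22d3 at -1.34 ± 0.25 and Hsd11b1, which regenerates active glucocorticoid, at -3.86 ± 0.10. Of 14 genes of oxidative and metal stress 4 were called higher and 2 lower, among them the heat shock gene Hspa1b, which has a near-identical copy, at 2.93 ± 0.41, Srxn1 at 1.58 ± 0.17, Nqo1 at 1.16 ± 0.14 and Gclm, a subunit of the enzyme that limits glutathione synthesis, at -0.86 ± 0.08. In the PPARα-null response and on control food 0 genes of these 3 lists were called. Without the array with acinar transcripts the counts in the wild-type response were the same.

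Genes listed for zinc-binding proteins of liver and for copper handling were also read. Of the 13 genes in the first list 2 were called higher and 6 lower in the wild-type response (median -0.74). Zinc binding was not checked for each of them, and Ass1 is listed without a basis for it here. Car2, a carbonic anhydrase, was at 4.51 ± 0.15, and Alpl, the alkaline phosphatase of liver, at 3.25 ± 0.11, while the alcohol dehydrogenase Adh4 was at -1.17 ± 0.15. Ass1, of the urea cycle, was at -1.27 ± 0.36 (not called). Its probe set was dim, with group means of 2.71 to 3.97, so that difference is given as a value only. Of 12 copper genes 1, the chaperone Cox17, was called higher, at 0.90 ± 0.09, and 0 lower, and 2 were called higher without the array with acinar transcripts. No gene of either list was called in the PPARα-null response or on control food.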
